A study of Mus musculus with 179 samples.

Results

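The potassium channel family was taken by name, as the mouse genes whose symbol is Kcn followed by letters and a number. In the data of the male ventral tegmental area (VTA), 94 gene rows carried such a name. Of these, 80 gene rows with 79 symbols were kept as members, because their mean was at least 0.5 RPKM (reads scaled to gene length and library size) in male VTA or at least 10 normalised reads in the table of the prefrontal cortex, hippocampus and female libraries. The first limit was met by 70 members and the second by 78. Just inside the limits were Kcnk5 at 0.547 RPKM and 22.5 normalised reads, and Kcnh8 at 22.3 normalised reads. Just outside were Kcnn4 at 7.29 and Kcnk7 at 5.84 normalised reads. All 80 members were in the male VTA table, 78 in the prefrontal cortex, hippocampus and female table, and 55 in the male nucleus accumbens table used here. Kcnj11 and a second Ensembl gene model that is also named Kcnb2 were the 2 members outside the larger of those tables. Because 2 gene models share the name Kcnb2, the split of reads between them is uncertain. The same holds for Kcnh8, whose second model, at 0.406 RPKM, is not a member.

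Potassium channels let potassium leave or enter a cell and so set its resting potential, the shape of its action potentials and its firing rate. The voltage-gated families open on depolarisation, the calcium- and sodium-activated channels follow the ions that enter during firing, and the inward rectifiers and tandem-pore channels conduct near rest. Auxiliary subunits such as Kcnab, Kcnip, Kcnmb and Kcne do not form pores themselves but change the gating and trafficking of the channels they join. In the midbrain, dopamine neurons use several of these channels to pace their firing, and astrocytes use Kcnj10 to take up potassium.

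The libraries came from a study of early life stress (ELS) in C57BL/6 mice, in which poly-A RNA of punches from the adult brain was sequenced 24 hours after behavioural testing. Of 179 samples, 163 are RNA libraries, and the other 16, from chromatin and its input, were not analysed here. Males met chronic social defeat as adults and females met sub-threshold variable stress (STVS), and the sexes were separate cohorts. Each set holds mice with ELS and adult stress, with ELS alone, with adult stress after standard rearing, and standard-reared mice without adult stress, called controls. Male VTA had 6 ELS with defeat, 4 ELS, 6 defeat and 4 control libraries, and the days of its ELS are not given in the labels used here. Male nucleus accumbens (NAc) had 6 ELS with defeat and 4 ELS libraries for days 10 to 20, 5 and 4 for days 2 to 12, 6 defeat and 4 control libraries. Male hippocampus (HIP) and male prefrontal cortex (PFC) had 6 libraries in each of the 4 groups. Female VTA, NAc and PFC each had 6 ELS with STVS, 5 ELS, 5 STVS and 6 control libraries, with ELS on days 10 to 20. Each male VTA or NAc library pools 3 mice and every other library is 1 mouse.

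Recovered depth ran from 19185904 to 41191492 reads in female VTA, 20852265 to 36844795 in female NAc and 22368310 to 34412776 in female PFC. It was 22358109 to 42746141 reads in male HIP, 27909633 to 35986244 in male PFC and 13601728 to 23863215 in male NAc, and is unknown for male VTA. By limits set after seeing the data, 14 libraries stood apart by a sex-linked gene or by Ttr, a choroid plexus gene. Among control libraries these were replicate 3 of female VTA, with Ddx3y at 145 normalised reads, replicates 1, 4 and 6 of male HIP with Ttr over 10000, and replicates 1 and 4 of male PFC with Xist over 200. For 10 female NAc libraries the adult label repeats the sex and the title was used. VTA punches carried the dopamine markers of their label. Th had 4947 to 25578 normalised reads in female VTA controls, against 276 to 443 in NAc and 53.7 to 108 in PFC. In male VTA controls Th had 124 to 278 RPKM.

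The sequences that the pore-forming members share sit in the selectivity filter, the stretch of the pore that lets potassium pass and holds back sodium. A coding sequence was searched in frame for NTNGGNTNNGGN, which spells the middle codons of that filter. It was present in 66 of 68 pore-forming members, in 0 of 12 auxiliary members and in 9.86% of all 22737 coding genes. The exceptions were Kcnk1 and the short second Kcnb2 model. Of the 10 tandem-pore members, whose single chain carries more than 1 pore loop, 8 held it at least 2 times. The following coding stretches of 36 bases, from GENCODE transcripts, are shown for 5 members of the Kv1, silent, EAG and tandem-pore groups whose level differed between regions, with the 12 bases of the match in capitals.
Kcng4: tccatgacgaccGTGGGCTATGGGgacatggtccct
Kcns3: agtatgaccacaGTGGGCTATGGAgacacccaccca
Kcna5: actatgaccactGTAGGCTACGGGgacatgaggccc
Kcnh4: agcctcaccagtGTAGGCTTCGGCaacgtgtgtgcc
Kcnk4: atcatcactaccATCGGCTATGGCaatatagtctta
The Kcng4 and Kcns3 stretches come from silent subunits, which join Kv2 channels and do not open on their own. The Kcng4 match begins at base 1249 of its 1521 coding bases, in exon 3 of 3 on chromosome 8. The Kcns3 match begins at coding base 1111, in exon 3 of 3 on chromosome 12, and the Kcna5 match at coding base 1408, in exon 1 of 1 on chromosome 6. The Kcnh4 match begins at coding base 1318, in exon 8 of 17 on chromosome 11, and the first of 2 Kcnk4 matches at coding base 313, in exon 3 of 7 on chromosome 19.

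Male VTA is the one set with values per gene length, so members can be ranked there. Over its 20 libraries 25 members averaged over 10 RPKM, 39 from 1 to 10 and 16 under 1, with a median of 3.85 RPKM. Kcnj10, the inward rectifier of glia, was highest with a mean of 111 RPKM. In the 4 control libraries Kcnj10 had 99.6, 109, 106 and 114 RPKM. Kcnab2, a beta subunit of Kv1 channels, came next with a mean of 77.7 RPKM. Also among the first 10 were the Kv1 channels Kcna1 (38.7 RPKM) and Kcna2 (35.2 RPKM) and the Kv3 channels Kcnc1 (34.2 RPKM) and Kcnc4 (33.4 RPKM). The tandem-pore channels Kcnk1 (32.6 RPKM) and Kcnk9 (27.8 RPKM) and the Kv3 channel Kcnc2 (25.8 RPKM) stood among them too. Neighbours from Kcna1 to Kcnk1 overlapped in the control libraries, with 30.3 to 46.7 RPKM for Kcna1 and 29.6 to 33.4 RPKM for Kcnk1. Kcng4 was 11th with 23.0 RPKM, and in control libraries it had 15.8, 25.5, 13.6 and 17.5 RPKM. At the low end, Kcnh3 averaged 0.474 RPKM, Kcnh4 0.275 RPKM and Kcne2 0.177 RPKM. Kcnh3 had 0.247 to 0.314 RPKM in the control libraries, and 1 library of the defeat group had 3.04 RPKM.

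**Figure D1:**
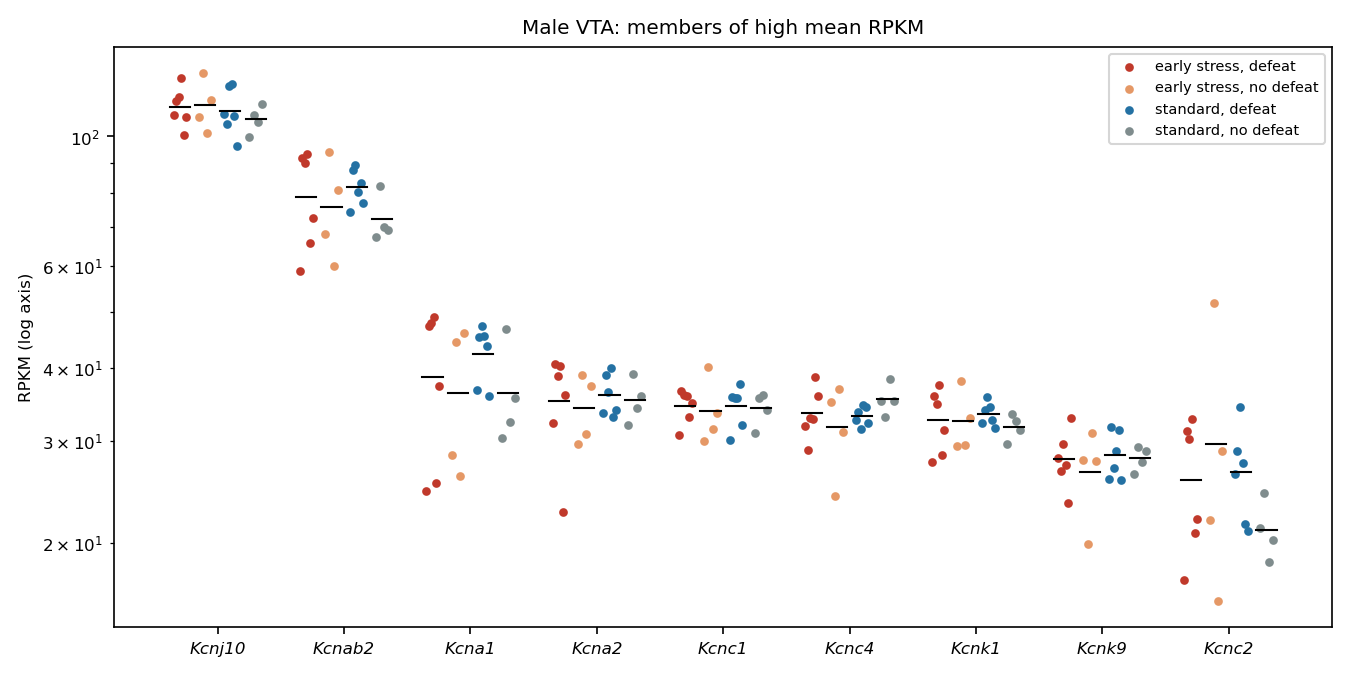
Levels of members of high mean in male VTA, in RPKM on a log axis. Each point is 1 library (pool of 3 mice), bars are group means, and the 4 groups run from ELS with defeat at the left to standard rearing without defeat at the right. Kcnj10 has the highest mean in every group, with 99.6 to 114 RPKM in the control libraries, and the 4 groups overlap for each gene.

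Regions were compared in the 6 control libraries of each, females for VTA, NAc and PFC and males for HIP and PFC, with limma on log2(normalised reads + 1). A member was called when its Benjamini-Hochberg adjusted p over all 14000 genes tested was under 0.05 and its fold change at least 2. Of the 78 members in that table, 71 were tested in females and 72 in males. Kcne2, Kcne4, Kcnh8, Kcnj13, Kcnk5, Kcnmb1 and Kcnq1 were under the filter in females, and Kcne4, Kcnh8, Kcnj5, Kcnk5, Kcnmb1 and Kcnq1 in males. The labels do not tie libraries of different regions to a mouse. Replicate 3 of the STVS group had low Xist in female VTA (6152 normalised reads), NAc (101) and PFC (166). The sum of 3 sex-linked markers had group medians of 13784, 36333 and 24697 there, so the VTA value was much less reduced. The labels also do not say how regions were spread over sequencing lanes. A batch that coincided with a region therefore cannot be told apart from the region. By mean level, 31 of the 78 members were highest in female PFC, 27 in VTA and 20 in NAc. PFC was the highest region for 7 of 10 calcium- or sodium-activated members and 7 of 11 Kv2 and silent members, and VTA for 5 of 9 Kv1 and Kcnab members. The same split over all genes is not given here, so these counts do not set the family apart from other genes. They also include members under the filter and near ties, such as Kcnk1 with means of 2344 normalised reads in VTA and 2269 in PFC. In bulk tissue, fewer cells of a type and less RNA per cell cannot be told apart. The punches differed in cell markers. The sum of 7 oligodendrocyte markers had a median of 497620 normalised reads in VTA (469640 to 640100), against 151210 in NAc (142450 to 204520) and 42090 in PFC (37128 to 49676). The sum of 5 dopamine markers was 23943 to 110610 in VTA, against 784 to 1385 in NAc and 316 to 373 in PFC, where En1 was at 0 in all 6 libraries. The sum of 5 striatal markers (Drd1 was not in the table used here) was 2400 to 4358 in VTA, 42970 to 66476 in NAc and 1709 to 2226 in PFC. The part of these cell markers in the differences below was not tested.

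Between VTA and NAc, 23 of 71 members were higher (32.4%) and 20 lower (28.2%) in VTA, against 10.7% and 9.08% of all genes tested. The groups did not overlap for 21 of the 23 and for all 20. The share without overlap among all genes called is not given, here or for the other region comparisons. Such counts therefore describe the members alone. The median absolute log2 fold change was 1.27 for members and 0.43 for all genes tested. The Kv3 channels Kcnc1, Kcnc2 and Kcnc4, which repolarise fast-firing neurons, were higher in VTA, as were 6 of 9 tandem-pore members, while 1 tandem-pore member, Kcnk2, was lower. Among Kv2 and silent members 6 of 11 were lower and 2 higher, and among EAG members (Kcnh) 3 of 7 were lower and 1 higher.

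The silent subunit Kcng4 had the largest fold change toward VTA. Its lowest, median and highest values were 1319, 3457 and 4661 normalised reads in VTA, against 8.54, 24.3 and 62.9 in NAc. Every VTA library lay far above every NAc library, and the log2 fold change was 6.99 ± 0.40 (SE, adjusted p = 3.2e-11, limma). Kcns3, another silent subunit, had 695, 780 and 1231 normalised reads in VTA, against 35.4, 64.4 and 72.8 in NAc, a log2 fold change of 3.82 ± 0.16. Kcnj6, a G protein-gated inward rectifier, had 350 to 883 normalised reads in VTA and 30.5 to 164 in NAc, a log2 fold change of 2.98 ± 0.34. The Kv3 channel Kcnc2 had 4307 to 7881 normalised reads in VTA and 481 to 1615 in NAc (2.73 ± 0.23 on the log2 scale). Dopamine markers were not even across these VTA libraries. The lowest dopamine marker sum was in replicate 3, the library that stood apart by Ddx3y, where Kcng4 had 4082 normalised reads. The part of dopamine neurons in the Kcng4 values was not tested.

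On the other side, Kcnj4, an inward rectifier of forebrain neurons, had 9.33, 54.6 and 165 normalised reads in VTA, against 4240, 5426 and 6096 in NAc. The groups were apart and the log2 fold change was -6.53 ± 0.46 (adjusted p = 8.5e-10, limma). Kcnh3, an EAG-like channel of forebrain neurons, had 24.2, 30.7 and 263 normalised reads in VTA, against 3090, 3624 and 4170 in NAc, a log2 fold change of -6.33 ± 0.42. The 263 was replicate 3, the VTA library with Ddx3y reads, and without it the log2 fold change was -6.84. Kcnip2, a calcium sensor that joins Kv4 channels, had 191, 229 and 575 normalised reads in VTA, against 7149, 8787 and 9175 in NAc (-5.00 ± 0.19). Kcnh4 had 26.9 to 36.8 normalised reads in VTA and 694 to 1132 in NAc (-4.90 ± 0.11). Kcnq5, a Kv7 channel of the M-current, had 376 to 824 normalised reads in VTA and 4750 to 6084 in NAc (-3.51 ± 0.13).

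Promoters of Kcng4 and Kcnj4, the members with the largest fold change in each direction between VTA and NAc, are shown from RefSeq (GRCm38.p6, 250 bases before to 50 after the start, 5′ to 3′ on the gene's strand). Capitals mark the GC box GGGCGG on either strand, the site known from Sp1. The Kcng4 window is chr8:119635631-119635930 and the Kcnj4 window chr15:79505192-79505491, both on the minus strand.
Kcng4: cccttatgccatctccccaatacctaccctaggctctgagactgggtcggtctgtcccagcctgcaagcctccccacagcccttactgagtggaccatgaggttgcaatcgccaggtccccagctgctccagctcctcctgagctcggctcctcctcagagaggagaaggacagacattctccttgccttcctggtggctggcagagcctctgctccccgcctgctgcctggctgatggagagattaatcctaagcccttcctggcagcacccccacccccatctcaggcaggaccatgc
Kcnj4: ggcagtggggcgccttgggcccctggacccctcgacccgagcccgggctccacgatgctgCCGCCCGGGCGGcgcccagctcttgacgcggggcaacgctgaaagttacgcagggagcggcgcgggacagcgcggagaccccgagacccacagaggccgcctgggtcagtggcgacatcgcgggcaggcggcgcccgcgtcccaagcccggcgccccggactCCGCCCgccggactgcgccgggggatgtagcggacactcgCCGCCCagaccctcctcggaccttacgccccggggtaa
The Kcng4 window held 4 CpG dinucleotides, 61.3% G or C and no GC box. The Kcnj4 window held 41 CpG dinucleotides, 76.0% G or C and 4 GC boxes. RefSeq windows were found for 56 of the 79 member symbols. GGGCGG, searched on both strands, was in 40 of 80 member windows and in 35.7% of all 32851 windows. TATAAA was in 4 of 80 member windows and 13.6% of all, and the cAMP response element TGACGTCA in 0 of 80 and 1.79%. Among members higher in VTA than in both other regions 6 of 11 windows held GGGCGG, and among those lower than in both 6 of 9. These matches describe the letters of the windows.

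Between VTA and PFC, 12 of 71 members were higher (16.9%) and 22 lower (31.0%) in VTA, against 9.85% and 9.34% of all genes tested, and the groups were apart for each. Kv2 and silent members made up 8 of the 22 lower, out of 11 tested, and 4 of 7 EAG members were lower. Inward rectifiers went both ways, with 4 of 11 higher and 3 lower. No Kv1 member was lower.

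Among the members with the largest fold change toward VTA were Kcng4, Kcnj5, Kcnk13 and Kcnj10. Kcng4 had 53.0 to 109 normalised reads in PFC, all under the lowest VTA library, and a log2 fold change of 5.32 ± 0.40. Kcnj5, a G protein-gated inward rectifier, had 89.9, 105 and 133 normalised reads in VTA, against 1.99, 7.06 and 8.94 in PFC (3.94 ± 0.29). No PFC library reached 10 normalised reads of Kcnj5. Kcnk13, a tandem-pore channel known from microglia, had 622 to 850 normalised reads in VTA and 80.8 to 121 in PFC (2.80 ± 0.10). The sum of 4 microglial markers had a median of 4431 normalised reads in VTA and 6343 in PFC. The part of microglia in the Kcnk13 values was not tested. Kcnj10 had 17356, 20482 and 22586 normalised reads in VTA, against 5075, 5514 and 8038 in PFC (1.78 ± 0.10). The sum of 4 astrocyte markers had a median of 23692 normalised reads in VTA and 23855 in PFC. Kcnj16, a partner of Kcnj10, had 1779 to 1987 normalised reads in VTA and 840 to 1240 in PFC (1.02 ± 0.12). The oligodendrocyte sum given above, Kcnj10 and Kcnj16 were all higher in VTA than in PFC. That sum was also higher in NAc than in PFC, with medians of 151210 and 42090 normalised reads. Kcnj10 averaged 6270 normalised reads in NAc and 5962 in PFC, and Kcnj16 averaged 408 and 943. The part of oligodendrocytes in the values of both genes was not tested.

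Kcnh3 had the largest fold change of all members between regions. It had 24.2, 30.7 and 263 normalised reads in VTA, against 5232, 6337 and 6613 in PFC, a log2 fold change of -7.08 ± 0.42 (adjusted p = 7.8e-11, limma). Kcnj4 had 3796 to 4560 normalised reads in PFC and a log2 fold change of -6.18 ± 0.46. The silent subunits Kcnf1, Kcnv1 and Kcng1 followed. Kcnf1 had 248, 370 and 555 normalised reads in VTA, against 6195, 7858 and 8333 in PFC (-4.37 ± 0.14). Kcnv1 had 116, 190 and 263 normalised reads in VTA, against 3262, 3555 and 3810 in PFC (-4.27 ± 0.14). Kcng1 had 60.3, 103 and 297 normalised reads in VTA, against 1218, 1978 and 2170 in PFC (-4.04 ± 0.29). The sum of 4 cortical markers had a median of 2298 normalised reads in VTA and 13215 in PFC, and its part in these values was not tested.

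Kcng4 and Kcns3 thus lay opposite to the silent subunits Kcnf1, Kcng1, Kcng3, Kcns2 and Kcnv1, which were lower in VTA than in both other regions. Members called higher in VTA than in both included Kcnab3, Kcng4, Kcnh2, Kcnj10, Kcnj16, Kcnj5, Kcnk13 and Kcns3. Those called lower than in both included Kcnf1, Kcng1, Kcng3, Kcnh1, Kcnh3, Kcnh4, Kcnip2, Kcnj4, Kcnmb4, Kcnq5, Kcns2 and Kcnv1. In the male VTA ranking of 80 members, Kcnj10, Kcng4, Kcnh2 and Kcnab3 were at ranks 1, 11, 13 and 16. Kcnj16, Kcns3, Kcnk13 and Kcnj5, also called higher, were at ranks 20, 27, 34 and 63. Of those called lower, Kcnh1, Kcnf1, Kcnip2, Kcns2, Kcnq5 and Kcnv1 were at ranks 42, 43, 45, 48, 50 and 60. Kcnj4, Kcng1, Kcnh3, Kcng3, Kcnh4 and Kcnmb4 were at ranks 61, 66, 72, 73, 76 and 79. Kcnj5 thus lay below some members called lower, and the ranking sets no region against another.

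**Figure D2:**
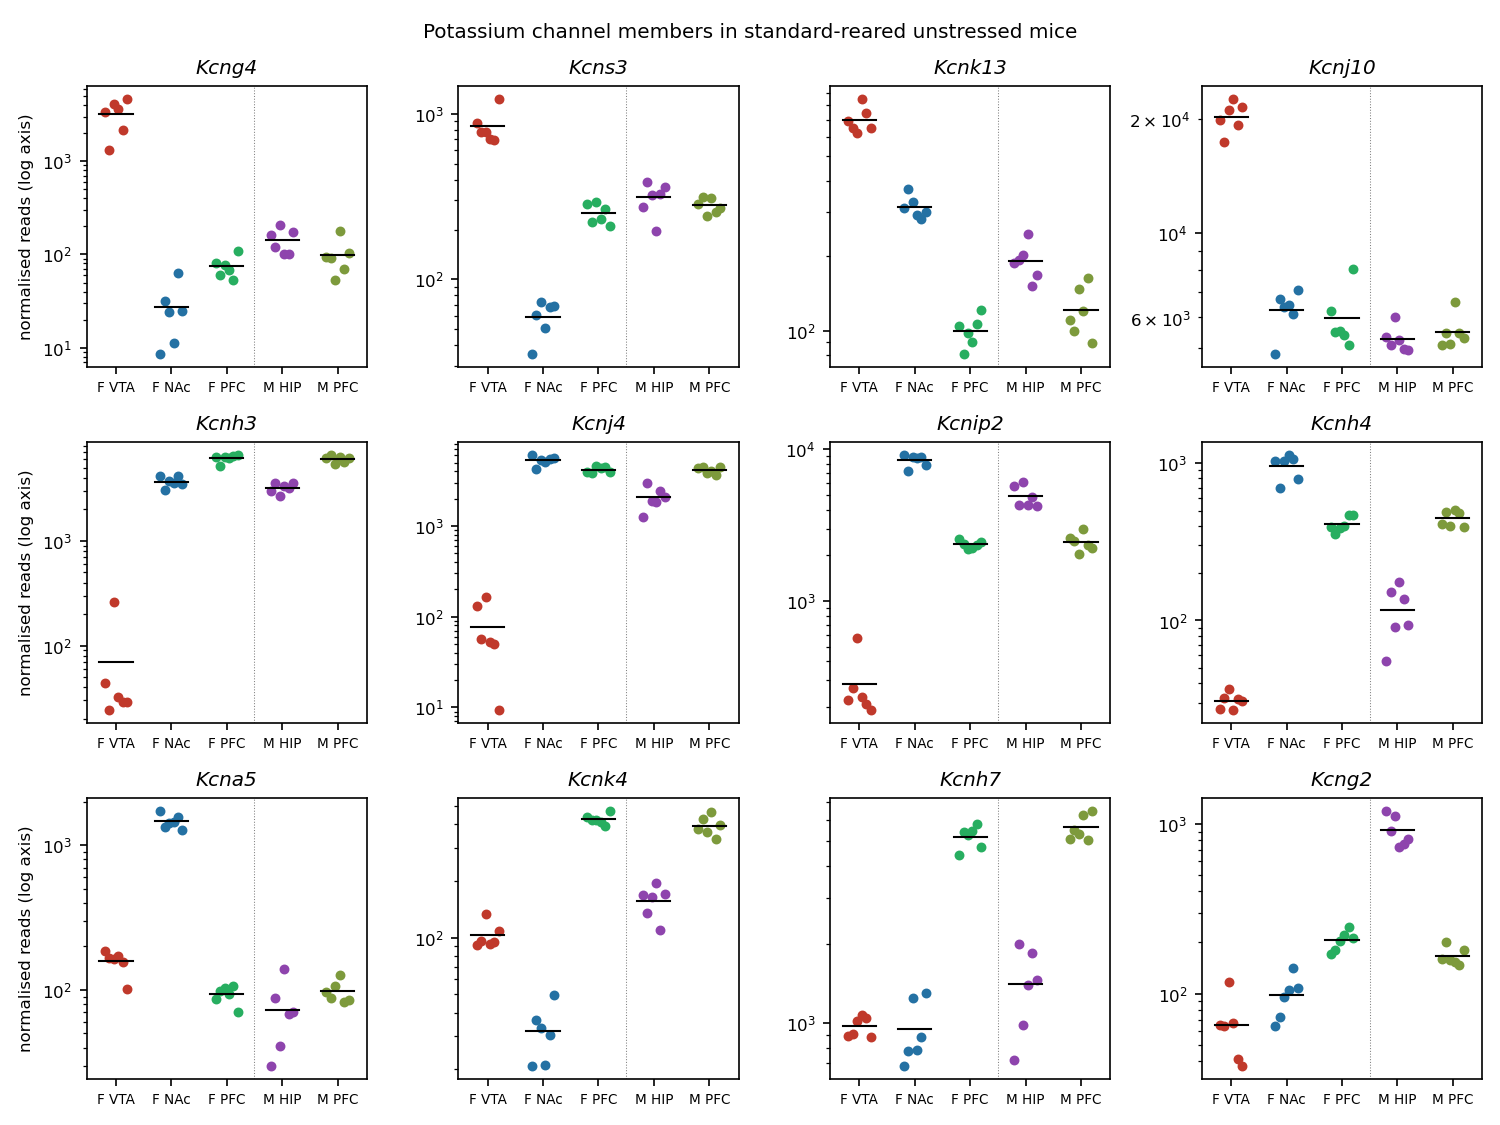
Normalised reads on a log axis for 12 members in standard-reared unstressed mice, 1 point per library and a bar at the mean (6 libraries each). F and M mark female and male libraries, and the dotted line parts them. Kcng4, Kcns3, Kcnk13 and Kcnj10 are highest in VTA among the female regions, while Kcnh3, Kcnj4, Kcnip2 and Kcnh4 are lowest there, with 1 VTA library of Kcnh3 at 263 apart from the other 5.

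Between NAc and PFC, 10 of 71 members were higher (14.1%) and 24 lower (33.8%) in NAc, against 5.99% and 7.18% of all genes tested. The groups were apart for all 10 and for 23 of the 24. The median log2 fold change was -0.59 for members and 0.01 for all genes tested. Lower in NAc were 6 of 11 Kv2 and silent members, 5 of 9 tandem-pore members, 4 of 9 calcium- or sodium-activated members and 4 of 11 inward rectifiers. Higher were 3 of 9 Kv1 and Kcnab members.

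Kcna5, a Kv1 channel, had 1279, 1424 and 1726 normalised reads in NAc, against 70.6, 96.2 and 107 in PFC, with the groups far apart (3.96 ± 0.13 on the log2 scale, adjusted p = 1e-15, limma). Kcna5 in NAc was also above VTA, where it had 101 to 185 normalised reads. Kcna4, another Kv1 channel, which inactivates quickly, had 1887 to 3216 normalised reads in NAc and 596 to 806 in PFC (1.86 ± 0.11). Kcnj5 had 30.2, 38.3 and 99.4 normalised reads in NAc, against 1.99, 7.06 and 8.94 in PFC (2.68 ± 0.29). The strong inward rectifier Kcnj2 had 1851 to 2434 normalised reads in NAc and 501 to 645 in PFC (1.92 ± 0.09). Kcnip2 had 7149 to 9175 normalised reads in NAc and 2184 to 2571 in PFC (1.84 ± 0.19).

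The tandem-pore channel Kcnk4 had 20.7, 31.9 and 49.4 normalised reads in NAc, against 390, 421 and 473 in PFC, and the groups were apart (-3.76 ± 0.16 on the log2 scale). Kcnj6 had 30.5, 74.6 and 164 normalised reads in NAc, against 728, 905 and 1018 in PFC (-3.58 ± 0.34). The other G protein-gated members Kcnj3 and Kcnj9 were also lower in NAc, by -2.29 ± 0.18 and -2.19 ± 0.09 on the log2 scale, while Kcnj5 was higher as given above. The Kv3 channels Kcnc4 and Kcnc2 were lower in NAc (-2.76 ± 0.24 and -2.31 ± 0.23), with 224 to 720 normalised reads of Kcnc4 in NAc and 2992 to 3455 in PFC. Kcnh7, an EAG-related channel, had 682 to 1296 normalised reads in NAc and 4390 to 5777 in PFC (-2.48 ± 0.13).

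Between male HIP and male PFC, 2 of 72 members were higher (2.78%) and 12 lower (16.7%) in HIP, against 4.14% and 3.24% of all genes tested, and the groups were apart for all 14. The silent subunit Kcng2 had 727, 859 and 1194 normalised reads in HIP, against 148, 159 and 202 in PFC (2.44 ± 0.13 on the log2 scale, adjusted p = 2.1e-08, limma). Kcnj14, an inward rectifier, had 77.2 to 117 normalised reads in HIP and 25.5 to 40.2 in PFC (1.55 ± 0.15). The sum of 3 granule neuron markers was 1182 to 10447 normalised reads in HIP and had a median of 393 in PFC, and its part in the Kcng2 value was not tested.

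Of the EAG members 3 of 7 were lower in HIP. Kcnh7 had 723, 1431 and 2010 normalised reads in HIP, against 5033, 5406 and 6506 in PFC (-2.08 ± 0.21 on the log2 scale). Kcnh4 had 54.9 to 175 normalised reads in HIP and 394 to 506 in PFC (-2.01 ± 0.23). Kcnh5 had 64.0 to 230 normalised reads in HIP and 325 to 809 in PFC (-1.96 ± 0.29). Kcnj12, a strong inward rectifier, had 127 to 295 normalised reads in HIP and 445 to 649 in PFC (-1.64 ± 0.19). Kcnk4 had 109 to 195 normalised reads in HIP and 334 to 463 in PFC (-1.34 ± 0.13). Kcnh3 had 2687 to 3575 normalised reads in HIP and 5484 to 6653 in PFC, and its fold change of 1.89 was under the limit. Kcnj2 and Kcnj4, lower here, were among the members not called in the libraries of the other 3 groups.

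**Figure D3:**
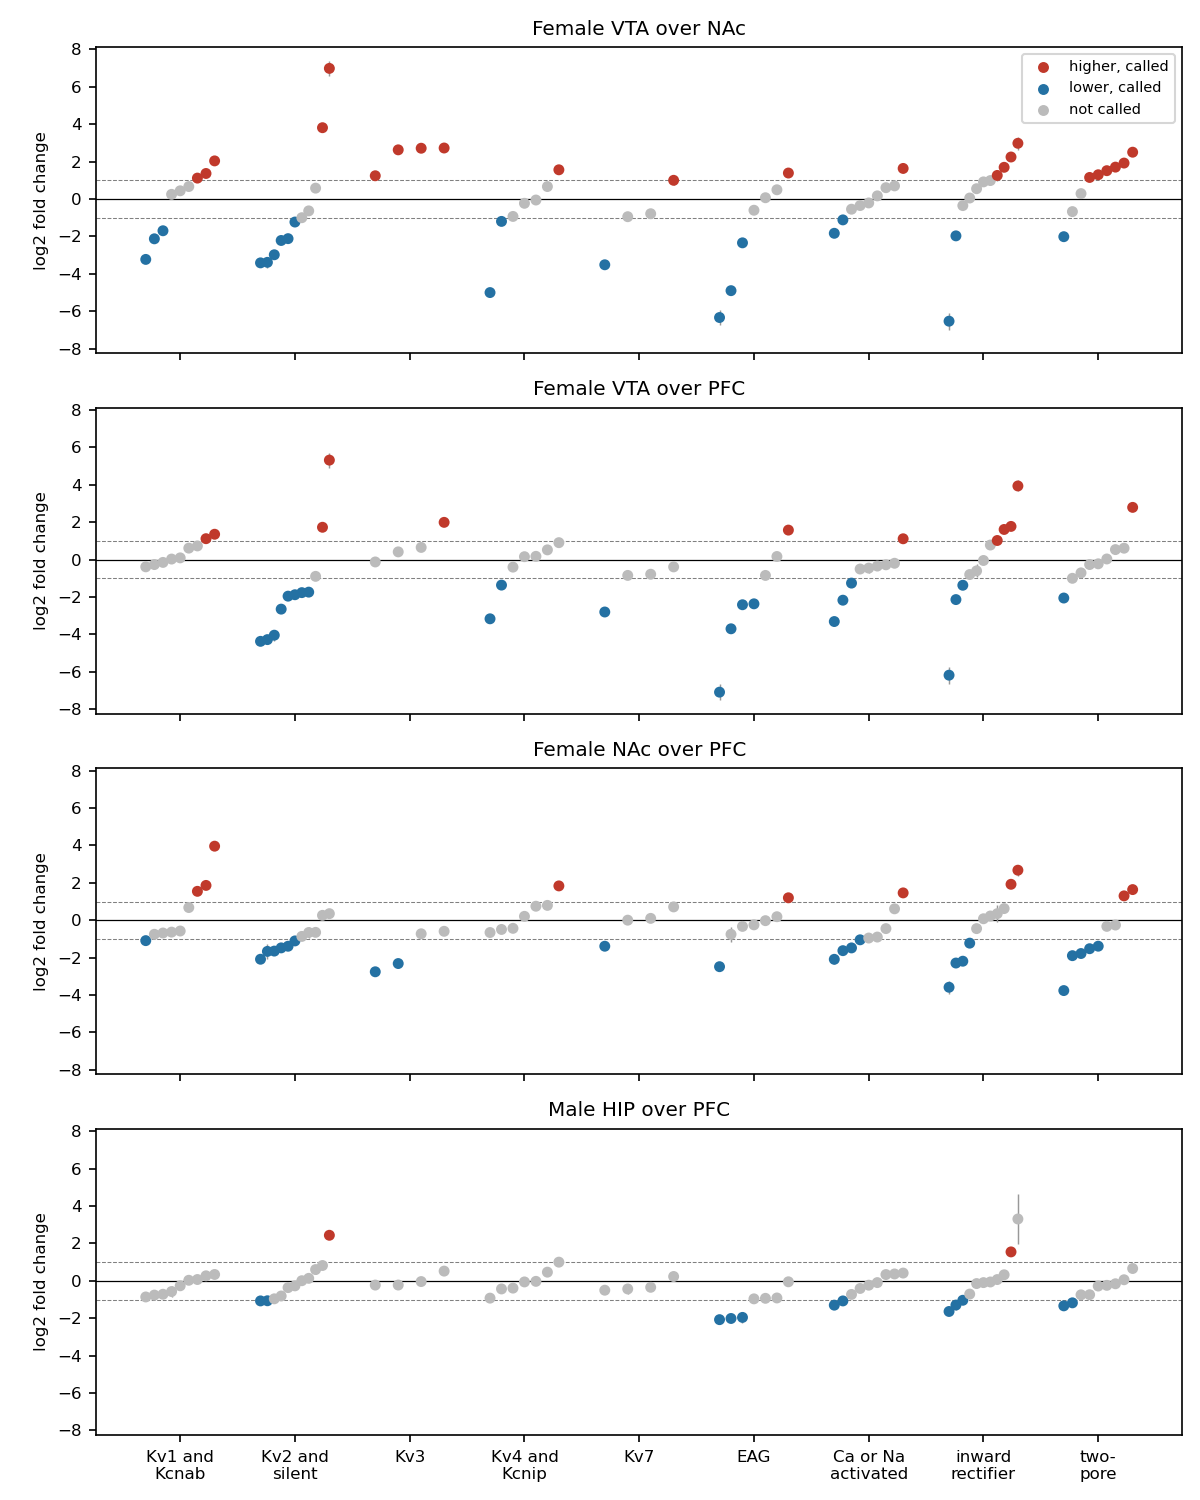
Log2 fold change of each tested member between regions in control libraries, by subfamily, with vertical lines of 1 standard error and dashed lines at 2-fold. Red points were called higher and blue points lower in the first region named, and grey points were not called. Kv2 and silent members are mostly blue for VTA over PFC except Kcng4 (5.32) and Kcns3 (1.73). The 1 tested Kcne member, Kcne2 in HIP over PFC, is left off.

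Kcne2, an auxiliary subunit, and Kcnj13, an inward rectifier, both known from choroid plexus, were not called between HIP and PFC by limma, and their 6 HIP libraries were split. edgeR on the recovered reads of all libraries called both higher in HIP, among 5 members. Kcne2 had 1077, 1.93, 2.01, 1560, 3.95 and 1231 normalised reads in HIP replicates 1 to 6, and 2.04 to 6.64 in PFC. Kcnj13 had 480, 3.87, 3.02, 811, 9.86 and 618 normalised reads in the same HIP replicates, and 2.21 to 11.3 in PFC. The same 3 libraries were high for both genes and overlapped with PFC in the other 3. The log2 fold changes were 3.75 ± 1.68 (adjusted p = 0.083, limma) for Kcne2 and 3.31 ± 1.36 (adjusted p = 0.061, limma) for Kcnj13. Ttr in these HIP replicates was 171510, 42.5, 28.2, 250320, 40.4 and 214560 normalised reads. The sum of 8 choroid plexus markers was 601 to 285790 normalised reads in HIP and 139 to 633 in PFC. Over all 24 HIP libraries, the 6 with Ttr over 10000 had 144 to 1560 normalised reads of Kcne2 and 70.7 to 811 of Kcnj13. The other 18 had 1.89 to 8.24 and 0 to 60.9. In male VTA, Kcne2 at 0.176 RPKM and Kcnj13 at 0.300 RPKM were under the limit for members. They are members only by their means of 59.05 and 29.86 normalised reads in the other table. Those means include these 6 libraries, so their membership leans on the high values shown here. With HIP replicate 2, 3 or 5 left out both genes were called, and the count of members higher in HIP was 5, 4 and 5. With all libraries that stood apart left out it was 4, namely Kcng1, Kcng2, Kcnip2 and Kcnj14, and both genes were then under the filter.

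**Figure D4:**
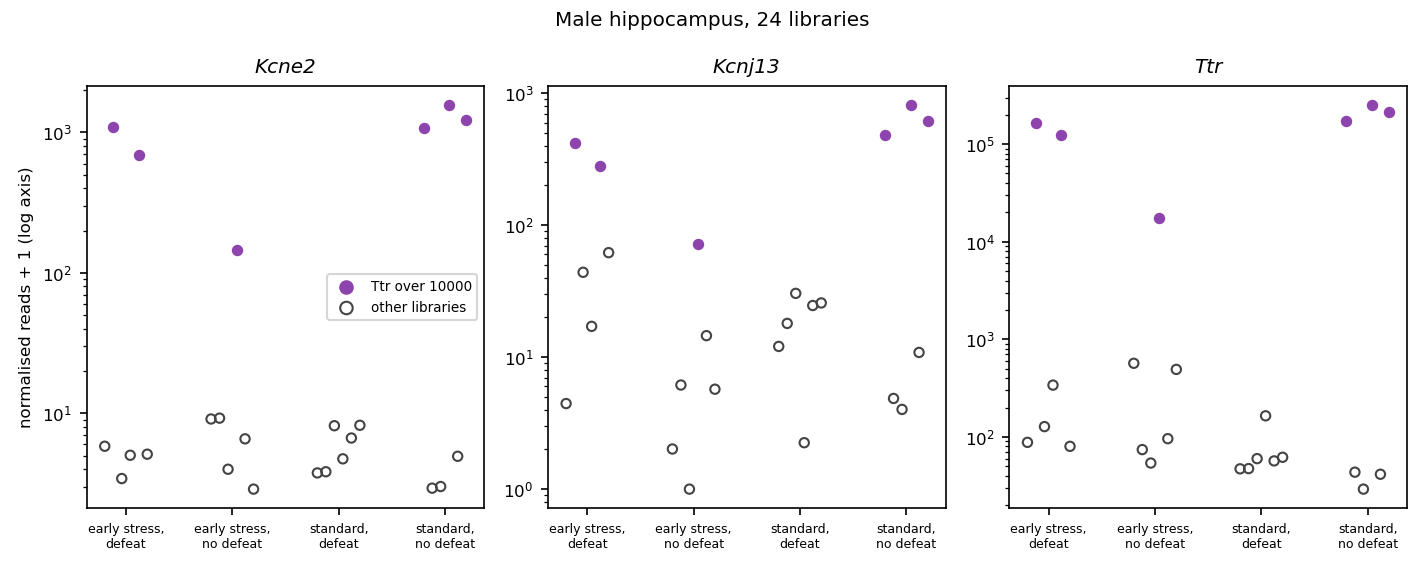
Normalised reads + 1 on a log axis for Kcne2, Kcnj13 and Ttr in the 24 male HIP libraries, by group, 1 point per library. Filled points have Ttr over 10000 and open points do not. The 6 filled libraries (2 ELS with defeat, 1 ELS, 3 control) are the highest for Kcne2, at 144 to 1560, and no open library exceeds 8.24.

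The other genes of the pathway were 18 partners and kin of these channels that the name leaves out, of which 16 were tested in females and 17 in males. In VTA over NAc 5 of 16 were higher and 0 lower at the same limits, against 10.7% and 9.08% of all genes tested. In VTA over PFC 4 of 16 were higher, all among those 5, and 1 lower (9.85% and 9.34% of all genes). In NAc over PFC 0 were higher and 2 lower (5.99% and 7.18%), and in HIP over PFC 0 of 17 were higher and 3 lower (4.14% and 3.24%). The pacemaker channel Hcn4 averaged 539 ± 48.7 normalised reads in VTA, against 102 ± 26.1 in NAc and 133 ± 36.9 in PFC (SD, n = 6 each). Hcn2 averaged 12860 ± 2020 normalised reads in VTA, against 3603 ± 409 in NAc and 3712 ± 332 in PFC. Cntn2, which clusters Kv1 channels on myelinated axons, averaged 12480 ± 1070 normalised reads in VTA, against 4390 ± 555 in NAc and 3096 ± 211 in PFC. Lrrc55, an auxiliary subunit of Kcnma1 channels, was higher in VTA than in NAc and PFC (1.57 ± 0.15 and 1.05 ± 0.15 on the log2 scale), and Hcn3 than in NAc (1.39 ± 0.10). Lrrc38 was lower in NAc than in PFC (-1.10 ± 0.25), though its groups overlapped. In HIP, Lrrc55, Lrrc38 and Dpp10, a partner of Kv4 channels, were lower than in PFC (-1.35 ± 0.19, -1.28 ± 0.37 and -1.22 ± 0.11).

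Stress was compared within each of the 7 region and sex sets, in 31 comparisons of 2 groups and 8 interactions of early and adult stress. Adult stress after standard rearing and ELS without adult stress were set against controls. Adult stress after ELS was set against ELS alone, and ELS with adult stress against adult stress alone. No member passed an adjusted p of 0.05 in any of them (limma), and neither did any of the other genes tested, so the share called was 0% in each. edgeR on the recovered reads gave 0 members and 0 genes over the 34 comparisons it could be run on. The lowest adjusted p of a member was 0.109 in limma. At an unadjusted p under 0.05, 124 of 2065 member tests passed (6.00%), against 6.15% of the tests of all genes, and the members' share was above that of all genes tested in 14 of the 31 comparisons and was 0 in 5. Counts in the following paragraphs are at the unadjusted p, with the share of all genes tested beside them, and none of the differences named passed the adjusted threshold. Most of these counts moved by over 1.5 times when 1 library was left out, and each paragraph gives such ranges. Comparisons within a set share groups of libraries.

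In male VTA, 5 of 70 members tested were under the unadjusted p for defeat after standard rearing (6.56% of all genes), 4 for defeat after ELS (4.57%), 1 for ELS without defeat (2.03%) and 2 for ELS with defeat (5.77%). With 1 library left out the 5 ran from 4 to 10 (10 without control replicate 2, 8 without defeat replicate 6), and the 4 from 3 to 9 (9 without ELS replicate 1 or 4). The 1 ran from 1 to 7 (7 without ELS replicate 3, 2 or 3 without ELS replicate 1 or 4 or control replicate 1, 2 or 3). The 2 ran from 1 to 3 (1 without ELS with defeat replicate 5 or 6 or defeat replicate 5). Kcnh5 had 1.36 to 1.73 RPKM after defeat and 1.77 to 2.01 RPKM in controls, with the groups apart (log2 fold change -0.22 ± 0.07, adjusted p = 0.69, limma). Kcnip4, a Kv4 partner, had 19.9 to 25.2 RPKM after defeat, 18.9 to 21.9 RPKM after ELS with defeat, 19.8 to 26.9 RPKM after ELS alone and 17.2 to 22 RPKM in controls. Its groups overlapped throughout, and its log2 fold changes were 0.23 ± 0.08 for defeat after standard rearing, -0.20 ± 0.08 for defeat after ELS and 0.28 ± 0.09 for ELS alone. For Kcna6, a Kv1 channel, defeat after ELS gave 16.4 to 20.5 RPKM, against 20.4 to 21.8 RPKM after ELS alone (-0.17 ± 0.05). For ELS with defeat, Kcnt1, a sodium-activated channel, had 10.4 to 18.5 RPKM, against 9.32 to 12.1 RPKM after defeat alone (0.30 ± 0.11). Kcnmb2, an auxiliary subunit of Kcnma1, had 0.788 to 1.25 RPKM after ELS with defeat and 1.06 to 1.31 RPKM after defeat alone (-0.14 ± 0.06).

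In male NAc, 3 of 55 members were under the unadjusted p for defeat after standard rearing (3.39% of all genes). After ELS on days 10 to 20 the counts were 0 for defeat (8.41%), 1 for ELS without defeat (6.77%) and 3 for ELS with defeat (4.62%). After ELS on days 2 to 12 they were 6 for defeat (7.71%), 0 for ELS without defeat (3.46%) and 1 for ELS with defeat (6.01%). With 1 library left out, the 6 for defeat after ELS on days 2 to 12 ran from 1 to 8, at 1 without ELS replicate 1 or ELS with defeat replicate 1 and at 3 without ELS replicate 2 or 4 or ELS with defeat replicate 3. The 1 for ELS on days 2 to 12 with defeat ran from 0 to 9, at 9 without replicate 5 of either group. The counts for defeat after standard rearing ran from 1 to 5, and for days 10 to 20 from 0 to 3, from 1 to 3 and from 1 to 4. The 0 for ELS on days 2 to 12 without defeat ran from 0 to 2. Kcnj8, the pore of the KATP channel of pericytes and vascular smooth muscle, had 142 to 171 normalised reads after defeat and 111 to 133 in controls, with the groups apart (0.30 ± 0.10 on the log2 scale, adjusted p = 1, limma). Kcng2 had 37.5 to 62.4 normalised reads after defeat and 22.4 to 39.4 in controls (0.61 ± 0.28). Kcnh4 had 1416 to 1931 normalised reads after ELS on days 10 to 20 and 1004 to 1412 in controls, apart by a narrow gap (0.47 ± 0.16, adjusted p = 0.57, limma). The sum of 4 striatal markers was 66233 to 83886 normalised reads after that ELS and 66979 to 84161 in controls. After ELS on days 2 to 12, Kcnj2 had 1530 to 2289 normalised reads with defeat and 2033 to 2599 without (-0.31 ± 0.10), and Kcnj4 had 5615 to 7450 with defeat and 6788 to 8792 without (-0.23 ± 0.09). Kcng1 had 980 to 1243 normalised reads after that ELS with defeat and 934 to 1513 after defeat alone (-0.20 ± 0.10). With ELS on days 10 to 20 and defeat, Kcnq1, a Kv7 channel, had 18.5 to 27.7 normalised reads, against 8.72 to 24.1 after defeat alone (0.48 ± 0.22). Kcnj13 reached 219 normalised reads in 1 of the 6 libraries of that group, whose median was 3.98, against 0 to 2.74 after defeat alone (1.92 ± 0.84). The sum of 3 of 8 choroid plexus markers reached 2152 normalised reads in the same library, with a group median of 64.2.

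In male PFC, 0 of 69 members were under the unadjusted p for defeat after standard rearing (3.35% of all genes) and 0 for ELS without defeat (2.22%), but 11 for defeat after ELS (16.7%) and 11 for ELS with defeat (8.44%). Kcnh4 stood out for defeat after ELS, with 485, 549 and 718 normalised reads, against 305, 379 and 472 after ELS alone. The groups were apart by a narrow gap, with a log2 fold change of 0.57 ± 0.13 and an adjusted p of 0.109 (limma). Leaving out replicate 1 of the ELS group brought the adjusted p to 0.0486, and over all alternatives it ran from 0.0486 to 0.381. The sum of 5 striatal markers was 1475 to 4542 normalised reads after ELS with defeat and 1634 to 2298 after ELS alone. Kcnd3, a Kv4 channel, had 2898 to 3613 normalised reads after ELS with defeat, against 3350 to 4392 after ELS alone (-0.22 ± 0.06, adjusted p = 0.16, limma) and 3273 to 3909 after defeat alone (-0.18 ± 0.06, adjusted p = 0.48). Kcnh3 had 6134 to 7142 normalised reads after ELS with defeat and 5616 to 6288 after defeat alone (0.18 ± 0.06, adjusted p = 0.47, limma). The 11 for defeat after ELS moved between 6 and 17 with 1 library left out: to 6 or 7 without ELS replicate 2, 4 or 6 or ELS with defeat replicate 1 or 6, and to 17 without ELS replicate 5. The 11 for ELS with defeat became 6 without defeat replicate 2 and 18 without defeat replicate 4, a library with Xist at 1284 normalised reads. The 0 for defeat after standard rearing reached 5 without control replicate 5, and the 0 for ELS without defeat reached 4 without ELS replicate 1. Without all libraries that stood apart, the 11 for ELS with defeat became 19.

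In male HIP, 10 of 74 members were under the unadjusted p for defeat after standard rearing (14.4% of all genes), 5 for defeat after ELS (7.88%), 5 for ELS without defeat (6.46%) and 6 for ELS with defeat (2.89%). The libraries that stood apart here did so by Ttr. They were control replicates 1, 4 and 6, ELS replicate 4 and ELS with defeat replicates 2 and 5. Without them, which leaves 3 controls, the 10 became 1 and the counts for ELS with and without defeat became 0. Smaller groups and the loss of high Ttr cannot be told apart in that fit. The comparison of ELS with defeat against defeat alone holds no control library. The 10 also became 6 without control replicate 1, 21 without control replicate 2 and 18 without defeat replicate 4. With 1 library left out the 5 for defeat after ELS ran from 3 to 6 and the 5 for ELS without defeat from 1 (without control replicate 4) to 8 (without ELS replicate 4 or control replicate 3). The 6 for ELS with defeat ran from 0 (without defeat replicate 1) to 10 (without defeat replicate 4). Kcna2, a Kv1 channel of axons, had 1367 to 1574 normalised reads after ELS with defeat, 1686 to 2176 after ELS alone, 1461 to 2327 after defeat alone and 1323 to 1788 in controls. Its groups were apart for defeat after ELS (-0.31 ± 0.09, adjusted p = 0.45, limma) and overlapped for ELS alone (0.31 ± 0.09) and for ELS with defeat against defeat alone (-0.24 ± 0.09). Kcnb2, a Kv2 channel, had 951 to 1802 normalised reads after defeat and 615 to 1192 in controls (0.55 ± 0.20). Kcnj14 had 61.5 to 99.8 normalised reads after defeat and 77.2 to 117 in controls (-0.41 ± 0.14). Kcnk10, a tandem-pore channel, had 166 to 246 normalised reads after ELS alone and 119 to 196 in controls (0.37 ± 0.16). Low members were also among those named, with 29.4 to 105 normalised reads of Kcne4 after ELS with defeat and 15.1 to 49.7 after ELS alone (1.00 ± 0.35). Kcnmb1 had 31.0 to 141 normalised reads after ELS with defeat and 22.1 to 53.3 after defeat alone (0.88 ± 0.39).

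In female VTA, 4 of 71 members were under the unadjusted p for STVS after standard rearing (4.44% of all genes), 2 for STVS after ELS (1.34%), 4 for ELS without STVS (4.22%) and 1 for ELS with STVS (4.2%). With 1 library left out the 4 for STVS ran from 2 to 20, at 20 without control replicate 2, 16 without STVS replicate 1, 7 without control replicate 5 and 2 without STVS replicate 5. The 4 for ELS without STVS ran from 1 (without control replicate 4) to 11 (without control replicate 2), and the other counts ran from 1 to 3 and from 0 to 3. Kcnj5 had 111, 165 and 182 normalised reads after ELS and 89.9, 105 and 133 in controls (0.52 ± 0.12 on the log2 scale, adjusted p = 0.87, limma). Kcns1, a silent subunit, had 43.2 to 72.6 normalised reads after STVS and 50.8 to 107 in controls (-0.54 ± 0.19). Kcnn2, a calcium-activated channel, had 715 to 907 normalised reads after STVS and 826 to 1027 in controls (-0.16 ± 0.06). Kcnj10 had 15176 to 21457 normalised reads after ELS with STVS and 19266 to 21751 after ELS alone (-0.21 ± 0.08), and Kcnj16 had 1711 to 1941 and 1842 to 2040 in the same groups (-0.10 ± 0.04). The oligodendrocyte sum was 398740 to 575030 normalised reads after ELS with STVS and 436030 to 562680 after ELS alone. Kcnh7 had 783 to 1205 normalised reads after ELS with STVS and 879 to 956 after STVS alone (0.21 ± 0.09).

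In female NAc, 2 of 67 members were under the unadjusted p for STVS after standard rearing (6.16% of all genes), 0 for STVS after ELS (2.2%), 3 for ELS without STVS (11.2%) and 14 for ELS with STVS (13.3%). Kcnj5 had 77.7, 107 and 138 normalised reads after ELS, against 30.2, 38.3 and 99.4 in controls (1.25 ± 0.39 on the log2 scale, adjusted p = 0.42, limma), and 1 control library, replicate 2, lay among the ELS libraries. Kcnd3 had 2271 to 2989 normalised reads after ELS and 1932 to 2761 in controls (0.26 ± 0.09). Kcnip3, a calcium sensor, had 2691 to 3321 normalised reads after ELS with STVS and 3028 to 3988 after STVS alone (-0.27 ± 0.08, adjusted p = 0.29, limma). Kcnb2 had 372 to 548 normalised reads after STVS and 541 to 632 in controls (-0.24 ± 0.09). The Kv7 channel Kcnq3 had 5009 to 7712 normalised reads after STVS and 7075 to 9757 in controls (-0.26 ± 0.12). The 14 for ELS with STVS became 8 without the libraries that stood apart, 9 without ELS with STVS replicate 1 or 2, and 8 without STVS replicate 2. The 3 for ELS without STVS became 14 without control replicate 2 and 5 without ELS replicate 3 or 5. The 2 for STVS ran from 0 to 3 with 1 library left out, and the 0 for STVS after ELS from 0 to 1.

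In female PFC, 8 of 69 members were under the unadjusted p for STVS after standard rearing (5.04% of all genes), 1 for STVS after ELS (3.25%), 1 for ELS without STVS (3.29%) and 10 for ELS with STVS (10.6%). All 8 had a fold change above 0 and all 10 a fold change below 0, and both comparisons use the STVS group. Kcnj12 had 551 to 761 normalised reads after STVS and 460 to 572 in controls (0.29 ± 0.11 on the log2 scale, adjusted p = 0.86, limma). Kcnk1, a tandem-pore channel, had 2288 to 2645 normalised reads after STVS and 2174 to 2378 in controls (0.13 ± 0.06), and 2234 to 2966 after ELS alone (0.14 ± 0.06). Kcnk4 had 327 to 424 normalised reads after ELS with STVS and 422 to 585 after STVS alone (-0.32 ± 0.10, adjusted p = 0.39, limma). Kcnq3 had 7097 to 8685 normalised reads after ELS with STVS and 8462 to 10602 after STVS alone (-0.20 ± 0.07). Kcnk2, a tandem-pore channel, had 1166 to 1303 normalised reads after ELS with STVS and 1321 to 1418 after ELS alone, with the groups apart (-0.14 ± 0.05, adjusted p = 0.999, limma). The oligodendrocyte sum was 38663 to 123890 normalised reads after ELS with STVS and 37625 to 65023 after STVS alone. Without STVS replicate 3, a library with Xist at 166 normalised reads, the 10 became 4, and without STVS replicate 2 they became 16. Without that library the 8 became 2, and leaving out any one of 8 libraries took them to between 2 and 5. The other counts ran from 1 to 3 and from 0 to 3 with 1 library left out.

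**Figure D5:**
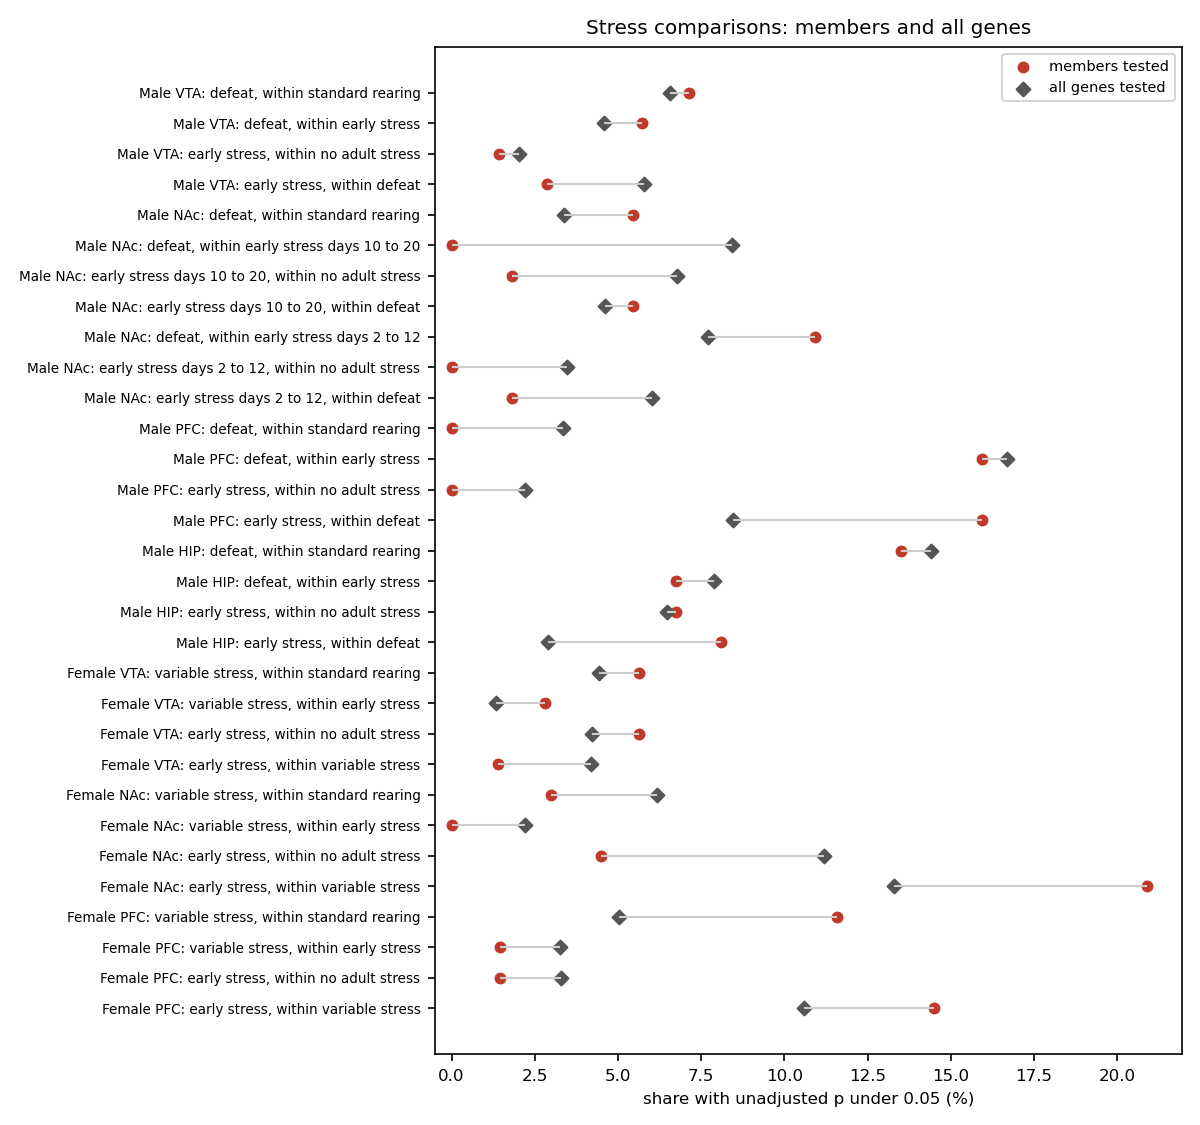
Share of members (red circles) and of all genes tested (grey diamonds) with an unadjusted p under 0.05, in percent, for each of the 31 stress comparisons. The highest share of members, 20.9%, is for ELS in female NAc with variable stress, where 13.3% of all genes passed, and members lie to the right of all genes in 14 of the 31 rows.

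The response to adult stress after standard rearing was also set side by side over the 7 sets, which hold separate libraries, though the labels do not say which libraries come from the same mouse. Of the 40 members tested in all 7 sets, 1 had a fold change of the same sign in each, against 2.83% of the 7412 genes tested in all 7. It was Kcnj8, whose log2 fold changes lay between 0.07 and 0.30, with a mean of 0.15. Kcnj8 had 2.32 to 2.75 RPKM after defeat and 2.1 to 2.6 RPKM in controls in male VTA. In female NAc it had 99.0 to 138 normalised reads after STVS and 91.5 to 127 in controls, and the groups overlapped in 6 of the 7 sets. Members tested in 2 to 4 sets with 1 sign in each were Kcnj13, Kcne4, Kcnj14 and Kcnj11. Kcnj13, Kcne4 and Kcnj11 were tested in 2 sets, where signs match easily. The share of all genes with 1 sign over so few sets is not given here, so this list does not set members apart. Kcnj13 had log2 fold changes of -1.23 in male NAc and -2.07 in male HIP, where its 3 high controls, at 480, 811 and 618 normalised reads, are those with Ttr over 10000 and no defeat library without ELS has such Ttr. Kcne4 had 0.15 in male NAc and 0.87 in male HIP. Kcnq1 and Kcnh8 were tested in 1 set each, where the sign cannot differ. Of the 18 other genes of the pathway none passed the adjusted threshold, and 31 of their 501 tests had an unadjusted p under 0.05, against 6.15% of the tests of all genes.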

How the data were processed

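Poly-A RNA of brain punches was sequenced from unstranded libraries, so overlapping antisense genes cannot be told apart. The deposited signal values, called normalised reads here, are gene counts that the authors divided by 1 factor per library. How those factors were computed is not given in the sources. Per the submitters' processing notes HISAT and HTSeq were used with mm10. Male VTA values were deposited as RPKM by the authors, with TopHat2 and HTSeq, and with mm9 and mm10 among the builds, per the submitters' processing notes. The 3 tables were normalised separately, and tests stayed within a table.

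Division by the smallest step of each library gave whole reads for 100% of values (tolerance 0.001), and these reads entered edgeR 4.0.16 as an alternative. RPKM depth is unknown, and 181 male VTA genes without values were left out. Because the values were normalised, limma 3.58.1 (R 4.3.3, trend and robust) was run on log2(value + 1) over the 14000 genes of highest mean, or the male VTA genes with a mean of at least 0.5 RPKM, with Benjamini-Hochberg adjustment. Fold changes on that scale understate changes of low genes. The fits were tested on simulated data with known changes.

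Named were, between regions, the 5 called members of largest fold change in each direction whose groups did not overlap. Between stress groups they were the called members, or otherwise the 2 of smallest unadjusted p under 0.05. The 10 members of highest mean RPKM, the 5 members of largest mean size with 1 sign of adult stress in every set, and examples of subfamilies were named too. Values of some members are not reported here. Members, lists and rules were chosen with earlier results of these data known.

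Libraries of a group differed by more than counting noise in all 328 pairs compared, so none were merged. Where nothing says that libraries are separate animals, p-values measure the spread between libraries. Alternatives were another pseudocount, no filter on low values, quantile normalisation, the replicate number as a block, edgeR, the other 3 groups of libraries, each library left out in turn, and the libraries that stood apart left out. The last was chosen after seeing the data, with limits of Xist over 200 in a male, in a female Ddx3y over 50 or Xist below 0.5 times the median of its region, and in either sex Ttr over 10000. The labels do not say that a shared replicate number marks a shared mouse, so the main fits did not pair libraries by number. Within a set, correlations of same-numbered libraries cannot decide this, because its stress groups hold different mice.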

Additional observations from a re-analysis of the deposited data

Results flagged for a closer look

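Among the named members, 14 of 142 groups tested (9.86%) held a library whose gap to the nearest other was wide for the group's range, where chance alone gives about 1 group in 20. In control replicate 3 of female VTA, the library with Ddx3y reads, 4 members were high. Kcnh3 had 262.7 normalised reads there (group median 30.7), Kcng1 had 297.4 (103), Kcnip2 had 574.9 (229) and Kcnq5 had 823.9 (457). The same library had the lowest dopamine marker sum of its group, and the part of that in these values was not tested.

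Other female VTA libraries set apart were control replicate 6 with 1231 normalised reads of Kcns3 (median 780) and STVS replicate 1 with 72.57 of Kcns1 (45.2). In female NAc, control replicate 2 had 99.41 normalised reads of Kcnj5 (median 38.3) and 2761 of Kcnd3 (2140), and STVS replicate 5 had 372.3 of Kcnb2 (536). In female PFC, control replicate 6 was low for Kcnf1 with 6195 normalised reads (median 7858) and for Kcng1 with 1218 (1978), and control replicate 2 was low for Kcnh3 with 5232 (6337). In male HIP, replicate 2 of ELS with defeat had 1367 normalised reads of Kcna2 (median 1539). In male NAc, replicate 4 of ELS on days 10 to 20 with defeat had 218.8 normalised reads of Kcnj13 (median 3.98).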

How the results depend on the processing

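All 770 values of named members between regions kept their direction and their side of the threshold under the alternatives run. Of the counts between regions under alternatives, 162 stayed within 1.5 times the reported one and 12 did not. With the adjusted p alone as the call, with no minimum fold, 31 members were lower in VTA than in NAc. For NAc against PFC it gave 19 higher and 42 lower, for VTA against PFC 21 and 35, and for HIP against PFC 14 and 32. Shares of all genes at that limit are not given here, so these counts do not set members against other genes. The count higher in HIP than in PFC was 5 with edgeR and 4 without the libraries that stood apart, and ran from 2 to 5 with 1 library left out. With 1 library left out, defeat after ELS in male PFC had 0 to 1 members past the adjusted threshold, the 1 being Kcnh4 without ELS replicate 1. No named value reversed its direction. Of the counts at the unadjusted p under alternatives, 180 moved by over 1.5 times. With the replicate block the region counts were 23 and 20 for VTA against NAc, 12 and 22 for VTA against PFC, 10 and 24 for NAc against PFC, and 2 and 12 for HIP against PFC. In male VTA the replicate block gave 14 members at the unadjusted p for defeat after standard rearing, against 5 without it. Male NAc titles give no replicate number within a group, so no block was run there. The male NAc replicate numbers used here follow the order of the samples. Shares of all genes with the replicate block are likewise not given here. Correlations of same-numbered libraries of different groups ran from -0.856 to 0.654, so not every pair deviated together, though their medians were 0.168 in female VTA and 0.119 in female PFC, against -0.0374 and -0.0341 for other pairs. Libraries of different stress groups in a set are from different mice, so those medians bear on a shared batch only, which they do not settle. Between regions, same-numbered control libraries had a median correlation of 0.014 in females and 0.0634 in males. Other pairs had -0.00963 and -0.0183. Whether some numbers mark a shared mouse across regions is not settled by these values. Depth limits members with few reads, such as Kcnj5 in PFC.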
